A study of Homo sapiens with 4 samples.

Results

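Antigen presentation was described through 35 genes, chosen by gene symbol from a list covering MHC class I and class II presentation, among 61471 gene names in the deposited count tables. All 35 had a row. The list holds 6 class I chain genes, 6 peptide loading genes, 5 immunoproteasome genes, 7 class II chain genes, 4 class II loading genes, 5 transcriptional regulators and 2 class I-like genes. RNA came from MDA-MB-231, an established human line of triple-negative breast cancer, labelled as wild-type and carrying H2B-EGFP and CMV-RFP in every library. The EGFP positive group (2 libraries) is labelled as having no increased extravasation and the EGFP negative group (2 libraries) as having it. EGFP status and extravasation status therefore cannot be told apart. The labels give neither a clone nor the way the groups were separated. Since no label tells cultures apart, the 2 libraries of a group may be technical repeats, and p-values then speak only of their spread.

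MHC class I molecules show peptides from inside the cell to CD8 T cells. The proteasome cuts proteins, TAP1 and TAP2 carry the peptides into the endoplasmic reticulum, ERAP1 and ERAP2 trim them, and tapasin (TAPBP) helps load them onto a heavy chain paired with beta-2-microglobulin (B2M). Class II molecules show peptides from the endosomal route to CD4 T cells and are mainly a feature of professional antigen-presenting cells, with the invariant chain CD74 guarding the groove until HLA-DM exchanges it for peptide. NLRC5 is the known coactivator of class I genes and CIITA that of class II genes, both acting at promoters bound by the RFX complex.

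The libraries held 11445076 to 12635576 counts. Levels are given in CPM (counts scaled to the TMM-adjusted total of tested genes) and, for comparing genes with each other, in TPM (which also divides by exon length). A fold change sets EGFP negative against EGFP positive cells, and adjusted p-values come from edgeR's quasi-likelihood test, two-sided, with Benjamini-Hochberg adjustment over 16413 genes. Intervals and floors from counts describe counting error alone. Of the line's markers, VIM was at 4199 and 5813 CPM (means of the EGFP positive and EGFP negative groups) and EGFR at 601 and 479 CPM. Of 8 such markers 3 were called higher in EGFP negative cells, VIM among them, and 2 lower, EGFR among them. That is 62.5% called, against 18.9% of all tested genes. Of 6 luminal markers, which should be low, CDH1, ESR1, PGR and FOXA1 had 0 to 3 counts per library and ESRP1 1 to 8, while GATA3 was present at 11.1 and 9.73 CPM. Robustness was checked by leaving out each library in turn, which leaves 1 library in its group, assumed to vary like the pair of the other group. Without an EGFP positive library the spread comes from the EGFP negative pair alone, which differed more (chi-square per degree of freedom 6.15 against 2.06). In those 2 fits the median fold change (log2) of the 11 called antigen presentation genes was 1.02 and 0.976 times that of the full fit. All 11 kept their direction, but their groups did not overlap, so leaving out a library could hardly reverse it. Kept direction is therefore no test of robustness. The median standard error was 1.62 and 1.63 times as large. Calls described below as lost without an EGFP positive library are to be read with this larger error. As these are bulk libraries, fewer expressing cells and less RNA per cell cannot be told apart.

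CIITA and the invariant chain gene CD74 rose in EGFP negative cells, while HLA-B and both TAP genes fell. CIITA rose 2.25-fold and CD74 1.86-fold, ERAP2 rose 2.08-fold, and B2M, ERAP1, PSMB10, PSME1 and RFX5 rose by smaller factors of 1.23 to 1.5. HLA-B fell 1.68-fold, TAP1 1.74-fold and TAP2 1.46-fold. Of the 35 genes, 26 passed the count filter, 5 had counts below it and 4 were at 0 in every library. With 8 higher and 3 lower, 42.3% of the 26 were called, against 18.9% of all tested genes (9.4% higher and 9.46% lower). The median log2 fold change of the 26 was 0.27 and that of all tested genes -0.0028. The filter can keep a low gene through the group where it is high, so these counts describe the tested genes only.

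**Figure D1:**
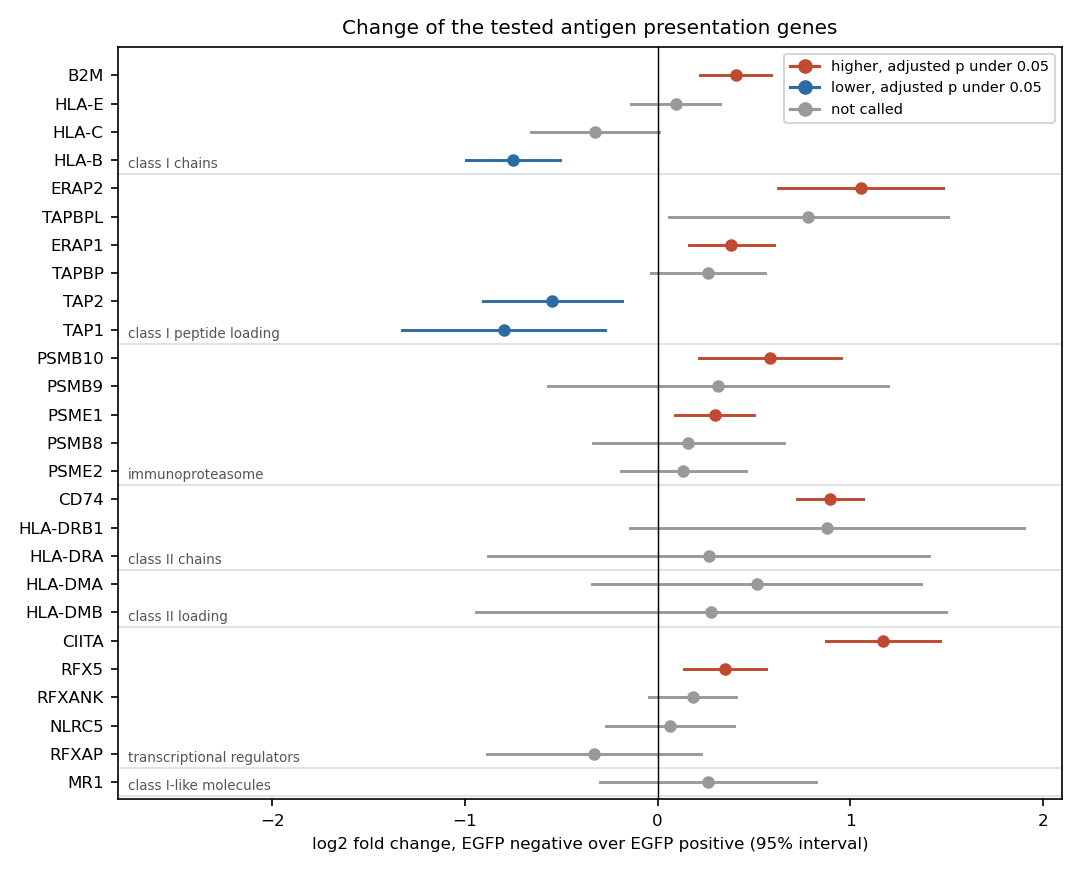
log2 fold change (EGFP negative over EGFP positive) of the 26 tested antigen presentation genes with its 95% interval, from the edgeR fit over 2 libraries per group, by role. CIITA (1.17), ERAP2 (1.06) and CD74 (0.89) lie farthest to the right among called genes, and TAP1 (-0.80), HLA-B (-0.75) and TAP2 (-0.55) to the left.

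Among the class I chains, B2M and HLA-B moved in opposite directions. B2M, the light chain common to all class I molecules (GRCh38 chromosome 15, 44711513 to 44718145), was at 200 and 194 CPM in the EGFP positive libraries and at 244 and 278 CPM in the EGFP negative ones. The groups did not overlap, as they did not for 57.4% of all tested genes, and the log2 fold change was 0.41 ± 0.09 (SE, adjusted p = 0.0042). The B2M call was lost without EGFP positive library 1 (log2 fold change 0.43, adjusted p = 0.058) or library 2 (0.38, adjusted p = 0.11), at a similar fold change. HLA-B, a classical heavy chain (chromosome 6, 31353875 to 31367067), was at 50.6 and 48.2 CPM in EGFP positive and 27.5 and 31.3 CPM in EGFP negative libraries. Both EGFP negative libraries lay below both EGFP positive ones (log2 fold change -0.75 ± 0.11, SE, adjusted p = 0.00034), and the call held under all 11 alternatives. In TPM the ratio of B2M to HLA-B was 7.65 and 7.80 with EGFP and 17.2 in each EGFP negative library. That ratio may be too high in every library, as 61.3% of the HLA-B exon bases lay under other gene models.

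None of the other heavy chains passed the test. HLA-C was at 22.3 and 18.5 CPM in EGFP positive and at 14.8 and 17.8 CPM in EGFP negative libraries. Its log2 fold change of -0.33 (95% interval -0.66 to 0.01) did not pass (adjusted p = 0.17), and passed without EGFP negative library 2 (adjusted p = 0.021). HLA-E, which presents leader peptides of other class I chains to natural killer cell receptors, was at 38.2 and 38.9 CPM in EGFP positive and 42.3 and 39.9 CPM in EGFP negative libraries (adjusted p = 0.62, 95% interval of the log2 fold change -0.14 to 0.32). In TPM, HLA-B stood beside HLA-E in EGFP positive cells (35.9 and 34.5 TPM) and below it in EGFP negative cells (20.8 and 35.9 TPM). These TPM divide by all 3139 exon bases of HLA-B, of which 61.3% lay under another gene model, against 0% for HLA-E. Reads there are left out by default, so HLA-B may be too low, and its order against HLA-E is not settled. HLA-G had 4, 6, 2 and 4 counts and HLA-F 0, 2, 2 and 0 counts in EGFP positive libraries 1 and 2 and EGFP negative libraries 1 and 2, under the filter.

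Levels of HLA genes carry a limit of the counting. Exon bases shared with another gene model make reads ambiguous, and featureCounts leaves such reads out by default. In the deposited annotation 61.3% of the exon bases of HLA-B, 39.3% of HLA-F and 24.2% of HLA-G lay under another model, against 0% for HLA-C, HLA-E and B2M. Of the 50-base words of their GENCODE 29 transcripts, 2.12% for HLA-B, 6.17% for HLA-C and 5.13% for HLA-E also occurred in transcripts of other genes, so some reads could be placed on a relative. The pseudogene HLA-H, 1 of those relatives, had means of 7.84 and 7.21 CPM (adjusted p = 0.75).

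RNA of the peptide transport genes TAP1 and TAP2 fell and that of the trimming genes ERAP1 and ERAP2 rose. The contrast between these pairs was not tested. TAP1 (chromosome 6, 32845209 to 32853816) was at 7.18 and 5.82 CPM in EGFP positive and 3.94 and 3.51 CPM in EGFP negative libraries (log2 fold change -0.80 ± 0.24, SE, adjusted p = 0.035). Its partner TAP2 (chromosome 6, 32821833 to 32838739) was at 14 and 14.7 CPM in EGFP positive and 10.6 and 9 CPM in EGFP negative libraries (log2 fold change -0.55 ± 0.17, SE, adjusted p = 0.035). Neither pair of groups overlapped, but both falls were close to the threshold. Antisense PSMB8-AS1 covers 19.1% of the exon bases of TAP1, and counting without strand cannot separate the pair. Another gene model covers 31.8% of the exon bases of TAP2, and 32.7% of its 50-base words occurred in other genes. The TAP1 call was lost without EGFP positive library 1 (log2 fold change -0.64, adjusted p = 0.33) or 2 (-0.94, adjusted p = 0.072), by DESeq2 (0.15) and with no filter on low counts (0.051). The TAP2 call was lost without EGFP positive library 1 (log2 fold change -0.58, adjusted p = 0.15) or 2 (-0.51, adjusted p = 0.24), without EGFP negative library 2 (-0.43, adjusted p = 0.072), by DESeq2 (0.14) and with no filter (0.069).

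ERAP2, the aminopeptidase that trims peptides alongside ERAP1 (chromosome 5, 96876500 to 96919703), was at 4.84 and 6.08 CPM in EGFP positive and 11.6 and 11.1 CPM in EGFP negative libraries. It rose in each of the 11 alternatives as well (log2 fold change 1.06 ± 0.20, SE, adjusted p = 0.0019). ERAP1 (chromosome 5, 96760810 to 96808100) was at 63.8 and 67.9 CPM and at 78.8 and 93.2 CPM (adjusted p = 0.018), a log2 fold change of 0.38. Its call was lost without EGFP positive library 1 (log2 fold change 0.34, adjusted p = 0.22) or 2 (0.43, adjusted p = 0.095). ERAP1 remained the more abundant of the pair, at 8.73 times ERAP2 in TPM in EGFP positive and 5.44 times in EGFP negative cells. Other gene models covered 9.97% of the exon bases of ERAP1, with 4.03% under CAST. CAST had 2893 and 3085 counts in EGFP positive and 4069 and 4571 in EGFP negative libraries. Its part in the ERAP1 counts was not tested. Tapasin, TAPBP, was at 18.3 and 21.9 CPM (adjusted p = 0.22), and its relative TAPBPL, which edits peptides on class I, at 1.73 and 3 CPM (adjusted p = 0.13, 95% interval of the log2 fold change 0.06 to 1.51). The EGFP negative libraries lay above the EGFP positive ones for both. In TAPBP 31.8% of the exon bases lay under another gene model. In TAPBPL it was 4.49%, under VAMP1, which had 42 and 41 counts in EGFP positive and 67 and 71 in EGFP negative libraries.

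Of the immunoproteasome genes, PSMB10 and PSME1 rose. The catalytic subunit PSMB10 was at 11.2 and 8.77 CPM in EGFP positive and 14.5 and 15.4 CPM in EGFP negative libraries (log2 fold change 0.58 ± 0.17, SE, adjusted p = 0.03). PSME1, a subunit of the PA28 activator, was at 63.3 and 62.9 CPM and at 74.0 and 81.2 CPM (adjusted p = 0.044). PSMB10 lost its call without EGFP positive library 2 (log2 fold change 0.42, adjusted p = 0.37), by DESeq2 (0.1) and with no filter (0.058). PSME1, with a log2 fold change of 0.30, lost its call without EGFP positive library 1 (0.30, adjusted p = 0.31) or 2 (0.29, adjusted p = 0.34), by DESeq2 (0.098) and with no filter (0.091). In PSMB10, 38.3% of the exon bases lay under another gene model, and reads there are not counted. The catalytic subunits PSMB8 (5.81 and 6.5 CPM) and PSMB9 (1.43 and 1.78 CPM) and the activator subunit PSME2 (24.6 and 27.1 CPM) had libraries that overlapped between groups, with adjusted p = 0.7, 0.67 and 0.61.

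The standard proteasome stayed far above its immune counterparts in both groups. In TPM, the standard subunit PSMB5 was at 38.5 and 32.5 times PSMB8 (means over the EGFP positive and EGFP negative libraries), PSMB6 at 160 and 129 times PSMB9, and PSMB7 at 23.5 and 15 times PSMB10. The last ratio was 21.4 and 25.5 with EGFP and 16.2 and 13.8 without, with no overlap. Of 16 standard proteasome genes, 1 was called higher, PSMB1 (137 and 175 CPM, adjusted p = 0.013), and 0 lower (6.25% called, against 18.9% of all tested genes), with a median log2 fold change of 0.01. PSMB1 lost its call without EGFP positive library 1 (adjusted p = 0.073) or 2 (0.35).

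**Figure D2:**
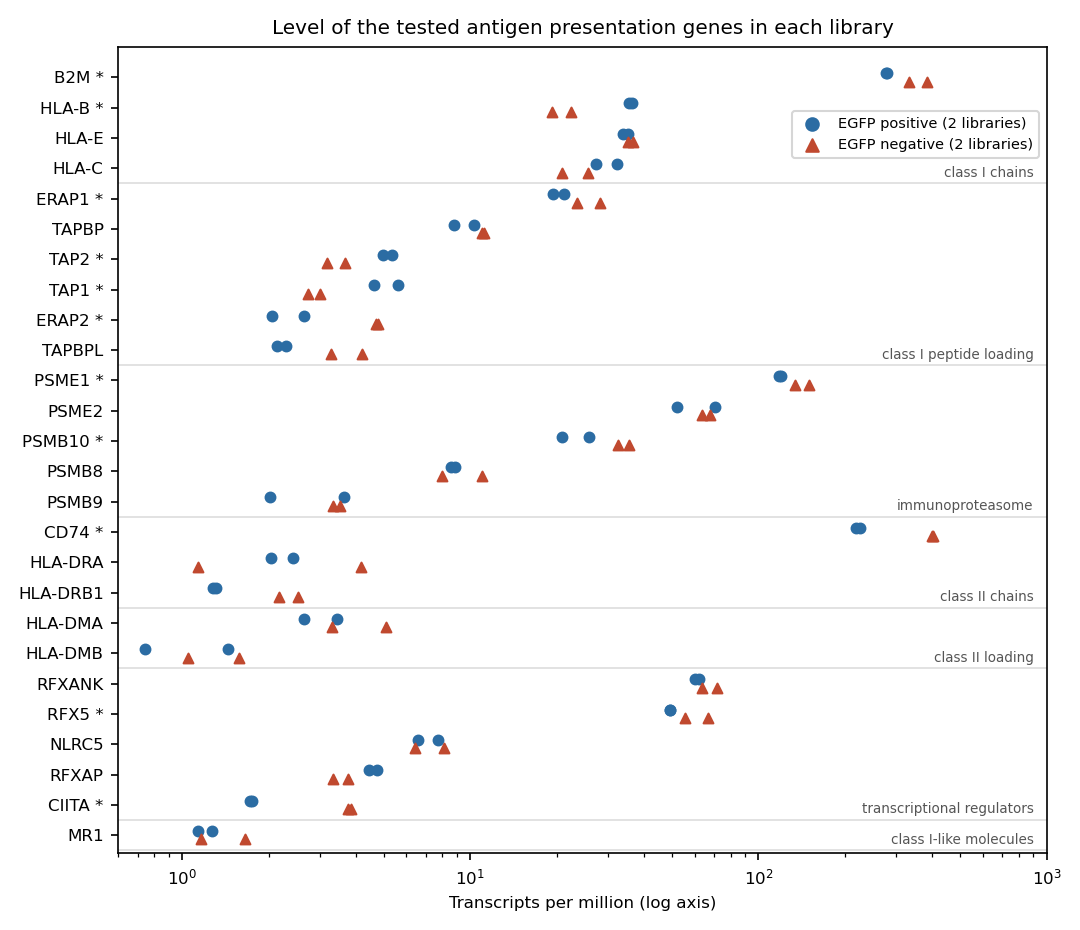
Level per exon length (TPM, log axis) of the 26 tested genes in each of the 4 libraries, by role; each point is 1 library and an asterisk marks a called gene. B2M and CD74 stand above 200 TPM in every library, while HLA-DRA, HLA-DRB1, HLA-DMA and HLA-DMB stay between 0.74 and 5.1 TPM.

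On the class II side the rise was in CD74. CD74 (chromosome 5, 150401637 to 150412910) was at 165 and 156 CPM in EGFP positive and 303 and 295 CPM in EGFP negative libraries. The groups were well apart relative to the spread of replicates (161 ± 6.36 and 299 ± 5.87 CPM, SD, n = 2), the log2 fold change was 0.89 ± 0.08 (SE, adjusted p = 3.2e-06), and the call held under all 11 alternatives. In TPM CD74 was above 96.7% of tested genes, and B2M above 96.8%. None of its exon bases were shared with another gene.

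The class II chains themselves were near the floor. HLA-DRA had 13 and 15 counts in the EGFP positive and 8 and 27 in the EGFP negative libraries, and its EGFP negative libraries lay on either side of the EGFP positive ones (adjusted p = 0.79, 95% interval of the log2 fold change -0.88 to 1.41). HLA-DRB1 had 8 and 8 counts against 15 and 16, with no overlap, and did not pass (log2 fold change 0.88, 95% interval -0.14 to 1.90, adjusted p = 0.23). Its near-identical neighbour HLA-DRB5 had 23, 18, 38 and 12 counts, and 9.92% of the 50-base words of HLA-DRB1 occurred in other genes. In TPM, CD74 was 110 and 90.2 times HLA-DRA with EGFP and 355 and 95.8 times without, at least 90.2 times in every library.

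HLA-DPA1 had 9 counts in the EGFP positive libraries together and 15 in the EGFP negative ones, and HLA-DPB1 9 and 1. For HLA-DPB1 that is a ratio of 9.46 in favour of EGFP positive cells, with an exact binomial 95% counting interval of 1.31 to 415. HLA-DQA1 and HLA-DQB1 had 0 counts in every library, which allows up to 3 counts or 0.241 to 0.260 CPM per library. Of the editing genes, HLA-DMA had 15 and 19 counts against 32 and 19 (adjusted p = 0.43), HLA-DMB 10 and 5 against 8 and 11 (adjusted p = 0.8), and HLA-DOA, which restrains HLA-DM, had 0. IFI30, the lysosomal thiol reductase, was also at 0, but 100% of its exon bases lay under another gene model, so a count of 0 there says nothing of its level. For HLA-DMA that share was 14.4% and for HLA-DMB 32.5%, so their counts may be too low.

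Of the transcriptional regulators, CIITA (chromosome 16, 10877198 to 10936394) changed most. It was at 12.5 and 12.0 CPM in EGFP positive and 28.2 and 26.9 CPM in EGFP negative libraries, well apart (log2 fold change 1.17 ± 0.14, SE, adjusted p = 4.3e-05), and its call held under all 11 alternatives. NLRC5 was at 23.4 and 19.4 CPM in EGFP positive and 25.1 and 19.5 CPM in EGFP negative libraries, which overlapped (adjusted p = 0.83, 95% interval of the log2 fold change -0.27 to 0.39). CIITA stood at 0.227 and 0.262 times NLRC5 in TPM in the EGFP positive and at 0.476 and 0.585 in the EGFP negative libraries. These ratios depend on the exon lengths used, 16114 bases for CIITA and 6844 for NLRC5. In CPM the EGFP positive means were 12.2 for CIITA and 21.4 for NLRC5, and the EGFP negative means 27.6 and 22.3. CIITA has several promoters with their own first exons, which counts per gene cannot separate, and 19.3% of its exon bases lay under other gene models.

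The RFX complex, which binds the X box of class I and class II promoters, changed in 1 of its 3 subunits. RFX5 (chromosome 1, 151340640 to 151347326) was at 79.8 and 78.0 CPM in EGFP positive and 92.5 and 109 CPM in EGFP negative libraries (log2 fold change 0.35 ± 0.10, SE, adjusted p = 0.024). Its call was lost without EGFP positive library 1 (log2 fold change 0.37, adjusted p = 0.17) or 2 (0.33, adjusted p = 0.23). RFXANK was at 42.5 and 48.3 CPM (adjusted p = 0.27) and RFXAP at 4.64 and 3.68 CPM (adjusted p = 0.43). Per length RFXANK (61.2 and 67.7 TPM) and RFX5 (49.4 and 61.4 TPM) were the most abundant regulators, and CIITA the least in EGFP positive cells (1.73 TPM). The place of CIITA depends on its exon length of 16114 bases. RFXANK may be too low, as 33.4% of its exon bases lay under other gene models. In CPM RFXAP was below CIITA in both groups (4.64 and 3.68 against 12.2 and 27.6 CPM). Of the class I-like genes, MR1, which presents microbial metabolites, was at 4.16 and 5.00 CPM (adjusted p = 0.56), and CD1D, which presents lipids, had 1, 0, 0 and 1 counts.

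By role, the medians of the tested genes ran from class I chains at -0.12 (4 of 6 genes tested, 1 higher and 1 lower) through processing genes at 0.30 (11 of 11, 4 higher and 2 lower) to class II chains and loading genes at 0.51 (5 of 11, 1 higher and 0 lower). The regulators had a median of 0.18 (5 of 5, 2 higher and 0 lower). Beside these counts, 9.4% of all tested genes were called higher and 9.46% lower. The difference between roles was not tested. Leaving out 1 library moved the class I median to -0.05 and -0.17 for EGFP positive libraries 1 and 2 and to -0.08 and -0.16 for EGFP negative libraries 1 and 2. It moved the class II median to 0.85 and 0.69 without EGFP positive libraries 1 and 2 and to 0.87 and 0.80 without EGFP negative libraries 1 and 2. Besides CD74, the class II median rests on 4 genes with 5 to 32 counts per library.

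Called genes divided by chromosome, a division chosen after the values were seen. Of the 19 genes on chromosome 6, 12 were tested, with 0 higher and 3 lower (25% called). Of the 16 on other chromosomes 14 were tested, with 8 higher and 0 lower (57.1% called). Over all tested genes 18.9% were called, 9.4% higher and 9.46% lower. The 19 span GRCh38 chromosome 6, 29722775 to 33314267, a stretch of 3.59 Mb that holds the MHC. Of its 311 other genes 74 were tested, with 0 higher and 4 lower (5.41% called) and a median log2 fold change of -0.09. In 30 of these 74 (40.5%) both EGFP negative libraries lay below both EGFP positive ones and in 9 (12.2%) above, against 29.3% below and 28.1% above over all tested genes. Both directions together came to 52.7% there and 57.4% over all. The 4 were HCG18, VARS1, MICA and ABCF1, with log2 fold changes of -0.77, -0.42, -0.61 and -0.33. On the rest of chromosome 6, 752 genes were tested, with 49 higher and 82 lower and a median of -0.01.

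**Figure D3:**
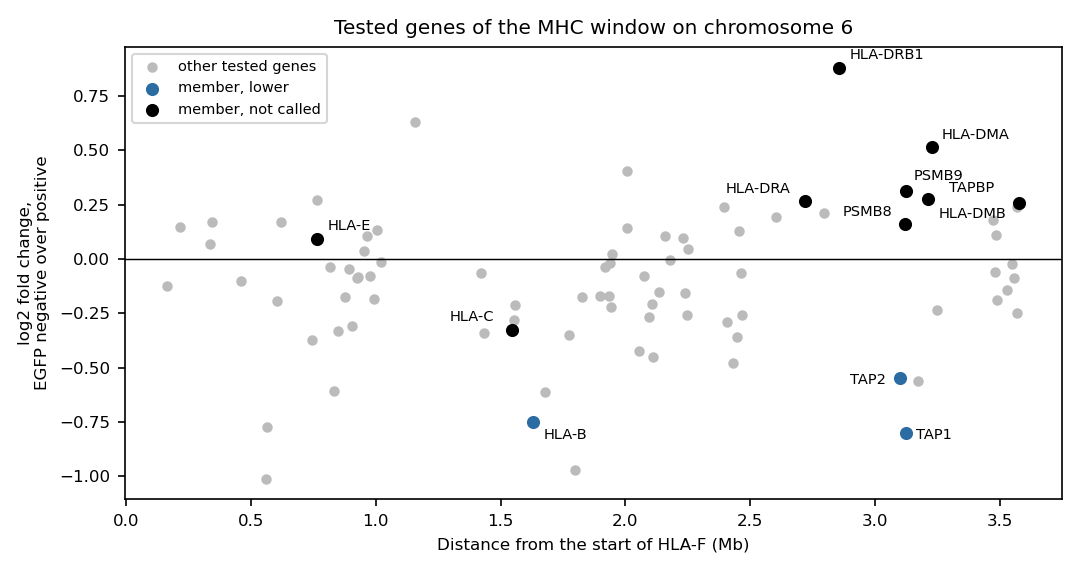
log2 fold change of each tested gene between HLA-F and TAPBP against its distance from the start of HLA-F in Mb; black and blue points are antigen presentation genes and grey points the 74 other genes. HLA-B, TAP1 and TAP2 are the 3 called ones, all below 0, and HLA-E and TAPBP lie above 0 without a call.

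TAP1 and PSMB9, neighbours within that stretch, are read away from each other from RefSeq starts 488 bases apart (chromosome 6, 32853704 and 32854192). TAP1 fell, and PSMB9, with 12 to 23 counts per library, had a log2 fold change of 0.32 (95% interval -0.57 to 1.20). The difference between the 2 genes was not tested.

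Promoters of 31 of the 35 genes were found in RefSeq (GRCh38.p14). CIITA, NLRC5, HLA-DRA and HLA-E were not matched. Of the 10 called genes with a promoter, 5 are shown as examples of genes that fell (HLA-B and TAP1) and rose (B2M, ERAP2 and CD74), as the 250 bases before the start, 5′ to 3′ on the strand of the gene. Capitals mark matches, on either strand, to 4 motifs: GAAANNGAA (core of the interferon-stimulated response element), CCAAT (NF-Y), TGACGTCA (CREB) and GGGANTNCC (NF-kB). The windows are chr6:31357180-31357429 (minus strand) for HLA-B, chr6:32853705-32853954 (minus) for TAP1, chr15:44711267-44711516 (plus) for B2M, chr5:96876250-96876499 (plus) for ERAP2 and chr5:150412911-150413160 (minus) for CD74.
HLA-B: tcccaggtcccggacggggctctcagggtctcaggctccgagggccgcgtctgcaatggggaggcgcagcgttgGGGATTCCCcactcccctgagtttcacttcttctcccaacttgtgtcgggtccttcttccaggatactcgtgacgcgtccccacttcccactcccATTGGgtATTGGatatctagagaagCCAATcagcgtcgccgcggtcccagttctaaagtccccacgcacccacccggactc
TAP1: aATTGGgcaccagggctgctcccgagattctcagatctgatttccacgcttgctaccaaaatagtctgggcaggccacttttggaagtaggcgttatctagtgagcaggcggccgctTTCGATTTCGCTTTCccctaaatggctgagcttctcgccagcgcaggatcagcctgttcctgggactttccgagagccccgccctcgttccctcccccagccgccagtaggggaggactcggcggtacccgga
B2M: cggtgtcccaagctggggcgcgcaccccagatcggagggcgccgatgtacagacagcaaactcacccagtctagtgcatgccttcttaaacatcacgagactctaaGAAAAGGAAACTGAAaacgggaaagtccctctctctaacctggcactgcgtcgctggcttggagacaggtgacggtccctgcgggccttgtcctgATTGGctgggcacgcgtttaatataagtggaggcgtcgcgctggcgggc
ERAP2: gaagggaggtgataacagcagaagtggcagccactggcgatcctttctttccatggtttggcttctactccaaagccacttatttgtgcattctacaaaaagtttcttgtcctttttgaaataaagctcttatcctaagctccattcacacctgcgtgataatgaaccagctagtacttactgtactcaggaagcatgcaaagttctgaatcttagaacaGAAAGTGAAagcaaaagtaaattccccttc
CD74: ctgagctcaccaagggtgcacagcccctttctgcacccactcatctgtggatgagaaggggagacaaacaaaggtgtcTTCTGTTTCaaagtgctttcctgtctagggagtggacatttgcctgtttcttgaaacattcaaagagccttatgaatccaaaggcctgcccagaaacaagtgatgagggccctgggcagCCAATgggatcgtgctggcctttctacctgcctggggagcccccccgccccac

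HLA-B had 3 CCAAT matches and an NF-kB match, which began 176 bases before the start, and no exact match to the interferon motif GAAANNGAA. An exact pattern misses elements spelled otherwise, so no match does not show that such an element is lacking. TAP1, which fell, and B2M, which rose, each had a pair of overlapping interferon matches, at 133 to 119 and 144 to 130 bases before the start. ERAP2 had 1, ending 22 bases before the start, and CD74 had 1 besides a CCAAT match at 53 to 49 bases. The interferon motif was in 13 of 31 matched genes (41.9%) against 8.41% of 27305 genes with such windows, and CCAAT in 20 (64.5%) against 37.0%. That background left out 1 chromosome, which holds none of the antigen presentation genes. The NF-kB motif was in 6 (19.4% against 4.59%) and the CREB motif in 0 (against 2.03%). Of matched genes called higher, 5 of 7 held the interferon motif, of those called lower 2 of 3, and of those tested and not called 4 of 12. A gene with more than 1 window counted once if any window matched. A match is a description of letters and not a measured binding site.

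Genes that sense and relay interferon, known to induce many of these genes, held 2 higher and 2 lower among 17 tested of 19 (23.5% called, against 18.9% of all genes), with a median log2 fold change of 0.04. SOCS3, a feedback inhibitor (37.7 and 54.6 CPM, adjusted p = 0.0033), and STAT2 (38.2 and 52.0 CPM, adjusted p = 0.0078) rose, while the phosphatase gene PTPN2 (38.1 and 26.2 CPM, adjusted p = 0.0082) and the kinase gene JAK1 (143 and 115 CPM, adjusted p = 0.02) fell. SOCS3 lost its call without EGFP positive library 2 (adjusted p = 0.066), PTPN2 without library 1 (0.22), and STAT2 and JAK1 without either (0.14 and 0.084 for STAT2, 0.35 and 0.13 for JAK1). IRF1, a transcription factor of the interferon gamma response, was at 21.7 and 23.9 CPM (adjusted p = 0.53, 95% interval of the log2 fold change -0.14 to 0.41). Partners at class II promoters had 0 higher and 2 lower of 11, NFYB (35.2 and 26.4 CPM) and the chromatin remodeller SMARCA4 (479 and 398 CPM), or 18.2% called. Both calls were lost without EGFP positive library 1 (adjusted p = 0.2 and 0.31) or 2 (0.17 and 0.31), by DESeq2 (0.083 and 0.065) and with no filter (0.05 and 0.054).

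Genes of the endosomal route, where class II peptides are made, were called in 64.3% (7 higher and 2 lower of 14, median log2 fold change 0.26), against 18.9% of all tested genes. Of these 9, AP2M1, SPPL2A and AP1M1 lost their calls without EGFP positive library 1 (adjusted p = 0.19, 0.21 and 0.32) or 2 (0.5, 0.4 and 0.18), and SPPL2A also by DESeq2 (0.13) and with no filter (0.099). The aspartic protease gene CTSD (374 and 1099 CPM, 2.94-fold, adjusted p = 6.5e-09), the cysteine protease gene CTSB (126 and 189 CPM, adjusted p = 0.00027) and the cathepsin inhibitor gene CST3 (195 and 328 CPM, adjusted p = 0.00024) rose. CTSS, the protease known to trim the invariant chain, had 13 and 16 counts in EGFP positive and 41 and 52 in EGFP negative libraries, a 3.06-fold rise (adjusted p = 0.0052), and CTSL rose from 68.6 to 105 CPM. CTSS and CTSL were singled out after their values were seen, as was IRF1.

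MARCHF1 gave the largest fall among the pathway genes examined. It encodes a membrane ubiquitin ligase that removes class II molecules from the cell surface. Its level was 12.1 and 14.1 CPM in EGFP positive and 2.81 and 2.31 CPM in EGFP negative libraries, 5.09-fold lower in the latter (log2 fold change -2.35 ± 0.22, SE, adjusted p = 6.1e-06), and the call held under all 11 alternatives. Its counts were 140 and 163 against 35 and 27. Its relative MARCHF8 was at 23.8 and 28.3 CPM (adjusted p = 0.18).

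**Figure D4:**
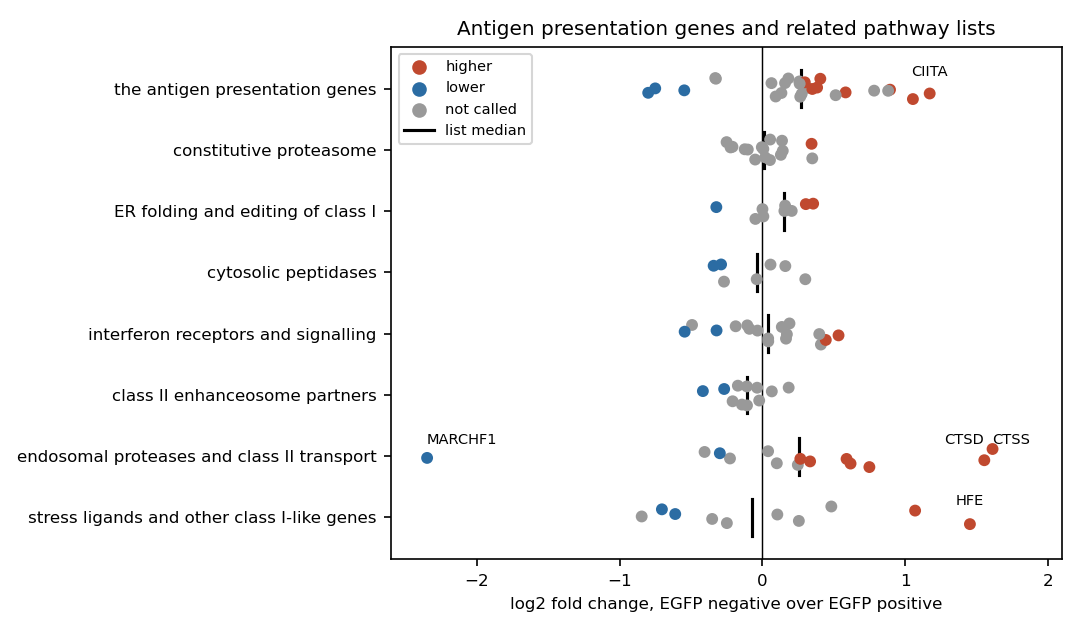
log2 fold change of each tested gene in the antigen presentation list and 7 related lists, with a bar at each list's median. CIITA tops the first list, and MARCHF1 (-2.35), CTSD (1.56), CTSS (1.61) and HFE (1.45) lie farthest out in the others.

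Genes of class I folding and editing were called in 33.3% and cytosolic peptidases in 28.6%, or 5 genes in all, against 18.9% of all tested genes. Among 9 genes of folding and editing in the endoplasmic reticulum, PDIA3, the disulfide isomerase bound to tapasin (108 and 138 CPM, adjusted p = 0.0087), and SPCS1 (66.5 and 82.1 CPM, adjusted p = 0.036) rose and BCAP31 fell (313 and 250 CPM, adjusted p = 0.011). Among 7 peptidases NRDC (317 and 251 CPM, adjusted p = 0.0066) and LAP3 (80.9 and 66.3 CPM, adjusted p = 0.049) fell. Each of these 5 calls was lost without EGFP positive library 1 (adjusted p = 0.2, 0.45, 0.27, 0.11 and 0.46 in that order) or library 2 (0.15, 0.18, 0.13, 0.21 and 0.22). DESeq2 and the fit with no filter also ended the calls of SPCS1 (0.081 and 0.079) and LAP3 (0.13 and 0.097), and RLE and upper quartile scaling that of LAP3 (0.052 and 0.059).

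Other class I-like genes split, with 2 higher and 2 lower of 10 tested (40% called, against 18.9% of all tested genes). HFE, which pairs with B2M and regulates iron uptake, was at 8.48 and 7.38 CPM in EGFP positive and 20.7 and 22.8 CPM in EGFP negative libraries (log2 fold change 1.45 ± 0.16, SE, adjusted p = 2.4e-05), well apart and called under all 11 alternatives. The NKG2D ligand gene RAET1E rose from 1.65 to 3.46 CPM (adjusted p = 0.049), and the NKG2D ligand genes ULBP2 (11.8 and 7.26 CPM, adjusted p = 0.015) and MICA (14.5 and 9.50 CPM, adjusted p = 0.028) fell. RAET1E lost its call without EGFP positive library 1 (adjusted p = 0.23) or 2 (0.16) or EGFP negative library 1 (0.25), ULBP2 without EGFP positive library 1 (0.053) or 2 (0.17), and MICA without EGFP positive library 1 (0.17) or 2 (0.093) or EGFP negative library 1 (0.082). DESeq2 ended all 3 calls (adjusted p = 0.19, 0.068 and 0.099), the fit with no filter those of RAET1E (0.064) and MICA (0.053), and limma-voom that of RAET1E (0.069).

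Markers of leukocytes and professional antigen-presenting cells had few counts apart from CSF1R. Of 19 such genes 8, among them MS4A1 and CD3E, had no count in any library, and PTPRC, the pan-leukocyte marker, had 6, 2, 4 and 2 counts. The myeloid markers LYZ (2 and 3 against 10 and 15 counts) and CD14 (6 and 2 against 10 and 9 counts) were under the filter. Both EGFP negative libraries of each lay above both EGFP positive ones, as they did for 28.1% of all tested genes. That share does not cover genes under the filter, such as LYZ and CD14. Over all 19 genes the summed counts were 47 and 24 in EGFP positive and 112 and 110 in EGFP negative libraries, and 23, 8, 81 and 74 of them were from CSF1R, which rose (adjusted p = 0.00058). Without CSF1R the other 18 summed to 24, 16, 31 and 36 counts. CD74 had 1911, 1801, 3774 and 3441 counts in the same libraries. The part of other cell types in the rise of CD74 and CIITA was not tested. LYZ, CD14 and PTPRC were singled out after their values were seen.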

How the data were processed

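Polyadenylated RNA of 4 libraries was sequenced, 2 per group, and stranded libraries were made, per the labels' protocols. Each library has a table of raw counts, which the authors made with featureCounts 2.0.1, summing exons by gene name in the GENCODE 46 basic annotation, paired and with no strand option, per the file headers; exon lengths in bases come from the same deposited tables. The aligner is not given in the sources used here, and the submitters' processing notes name the builds GRCh37 and hg19, while the deposited exon coordinates are those of GRCh38. Alleles of HLA genes carried by the line were not analysed here.

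A filter on low counts (filterByExpr, at least 10 counts and 15 in total) left 16413 of 61471 genes, which were tested with edgeR 4.0.16 (R 4.3.3), group being the only term, at an adjusted p of 0.05. TMM factors were 0.987 to 1.01. Standard errors are the log2 fold change over the square root of F. With 2 libraries per group an exact two-sided permutation cannot go below p = 0.33. Replicates differed by more than sampling noise (chi-square per degree of freedom 2.06 and 6.15), so none was counted as a duplicate. The 11 alternatives were RLE scaling, upper quartile scaling, leaving the filter out, a stricter filter (1 CPM in 2 libraries and 100 counts in all), DESeq2 1.42.0, limma-voom (limma 3.58.1), a replicate block and each library left out in turn. The scripts were tested on simulated data first. The genes and lists were chosen with earlier results of these data known. Named genes are all 35, and from each other list up to 4 called genes with the smallest adjusted p, or up to 2 with the highest level where none was called; others were chosen after their values were seen. Some genes and a motif of these lists are not reported here.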

Additional observations from a re-analysis of the deposited data

How the results depend on the processing

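Leaving out each library in turn, with the lone library assumed to vary like the other group, gave 3 to 8 antigen presentation genes higher and 1 to 3 lower, with 3 and 1 without EGFP positive library 2 and 4 and 1 without EGFP positive library 1, where the spread comes from the EGFP negative pair alone. All 11 called genes kept their direction in these 4 fits, which the lack of overlap between their groups made nearly certain. For all genes the same fits gave 720 to 2477 higher and 715 to 2465 lower. DESeq2 called 1 antigen presentation gene lower and 997 of all genes lower, and no filter on low counts also left 1 antigen presentation gene lower. CIITA, CD74, ERAP2 and HLA-B kept their call and direction under all 11 alternatives. The median of class II genes was 0.90 with the stricter filter, which left 1 of its 5 tested genes, and 0.69 to 0.87 with a library left out. Low or nearly unchanged genes reversed: HLA-DRA gave -0.0053 by limma-voom and -0.90 to 0.92 with a library left out, HLA-DMB -0.13 to 0.85, NLRC5 -0.13 to 0.24, PSMB8 -0.058 to 0.36, PSMB9 -0.032 to 0.77 and PSME2 -0.087 to 0.39; the cause was not tested. RLE and upper quartile scaling changed no call or direction of the 26 genes, and the median of all genes stayed between -0.023 and 0.012. Replicate numbers are shared by the groups but nothing in the labels pairs the libraries, and deviations of same-numbered libraries correlated at 0.16 across genes. With the replicate number as a block, 2297 genes were higher and 2407 lower, and 8 and 3 of the antigen presentation genes, with no call changed. Depth limits the class II chains other than CD74, whose counts of 0 to 27 per library leave wide intervals.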
